A study of Homo sapiens with 4 samples.

Results

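The surfactant and alveolar epithelial genes examined here were SFTPB, SFTPC, SFTPD, LAMP3, ABCA3, NKX2-1, NAPSA, FOXA1, FOXA2 and AQP3, chosen by symbol. They are 10 of the 19775 genes that the array's annotation names, and 23 of its 54613 probe sets map to them. A549, a human lung adenocarcinoma line often used as a stand-in for alveolar type 2 cells, was transfected with control siRNA or with siRNA against β-arrestin-1 (ARRB1), a scaffolding protein of activated G-protein-coupled receptors. All cells were serum starved for 36 h, and nicotine treated cells then received 1 µM nicotine for 24 h. The 4 conditions were thus serum starvation or nicotine with control siRNA and the same treatments with ARRB1 siRNA. RNA of each was hybridised to 1 Affymetrix Human Genome U133 Plus 2.0 array, so a condition had no replicate. ARRB1 itself was lower with its siRNA on 6 of 7 probe sets in each treatment, with a median of 54.2% of the control signal in serum starved and 65.7% in nicotine treated cells.

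Alveolar type 2 cells make pulmonary surfactant, the mixture of phospholipid and protein that keeps alveoli open. SFTPB and SFTPC encode the hydrophobic surfactant proteins that spread the lipid film, and SFTPD encodes a collectin that binds microbes. ABCA3 pumps phospholipid into lamellar bodies, the storage organelles of surfactant, LAMP3 is a glycoprotein of lamellar body and lysosome membranes, and NAPSA is an aspartic protease that helps to process the surfactant protein B precursor. NKX2-1 is the homeobox factor that specifies lung epithelium, FOXA1 and FOXA2 are forkhead factors that open chromatin at its targets, and AQP3 is a water and glycerol channel of airway and other epithelia.

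Promoter sequence is shown for 3 of these genes: SFTPB, a textbook target of FOXA factors and NKX2-1, SFTPD, whose signal was low, and AQP3, whose signal differed with the siRNA. The 150 bases before a RefSeq start site (GRCh38.p14, minus strand) are printed 5′ to 3′, at chr2:85668200-85668349 for SFTPB, chr10:79949106-79949255 for SFTPD and chr9:33447594-33447743 for AQP3. Capitals mark letters of a FOXA motif (TGTTTAC and its variants with GC, GT or AT as the last letters) or of the NKX2-1 core (TCAAG), each searched on both strands.
SFTPB: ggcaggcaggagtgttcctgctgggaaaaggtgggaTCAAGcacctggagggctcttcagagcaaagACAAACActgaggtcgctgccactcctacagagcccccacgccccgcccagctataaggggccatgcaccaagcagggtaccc
SFTPD: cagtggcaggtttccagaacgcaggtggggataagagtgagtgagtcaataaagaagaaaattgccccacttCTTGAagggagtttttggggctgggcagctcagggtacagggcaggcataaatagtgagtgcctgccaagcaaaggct
AQP3: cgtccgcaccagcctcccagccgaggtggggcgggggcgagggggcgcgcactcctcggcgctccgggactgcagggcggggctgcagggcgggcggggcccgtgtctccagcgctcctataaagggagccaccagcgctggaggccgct
The SFTPB stretch held an NKX2-1 core beginning 114 bases and a FOXA match beginning 83 bases before the start site. The SFTPD stretch held an NKX2-1 core on the opposite strand and no FOXA match, and the AQP3 stretch held neither. In windows of 250 bases before the start, AQP3 did hold an NKX2-1 core and SFTPD held a further one. Neither held a FOXA match there. Of all 35116 RefSeq promoters, 29.2% had the NKX2-1 core and 13.3% had a FOXA match in such windows. A match is thus a description of the letters and not of binding. SFTPB has a second RefSeq start, whose window held neither motif.

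The first question was which of these genes A549 cells had above the median signal of the array. Values are linear MAS5 signals that were scaled to 1 level per array, and the medians of the 4 arrays lay between 68.6 and 73.3. By the brightest probe set of each gene, SFTPB, LAMP3, ABCA3, NAPSA, FOXA1, FOXA2 and AQP3 (7 of 10) lay above the median on every array, against 59.3% of all 19775 genes. Of their 23 probe sets, 11 did so, against 44.8% of all probe sets. SFTPC lay above it on 3 of 4 arrays, and SFTPD and NKX2-1 on none. Signals were compared with the array median and not between genes, since probe sets differ in how they hybridise.

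**Figure D1:**
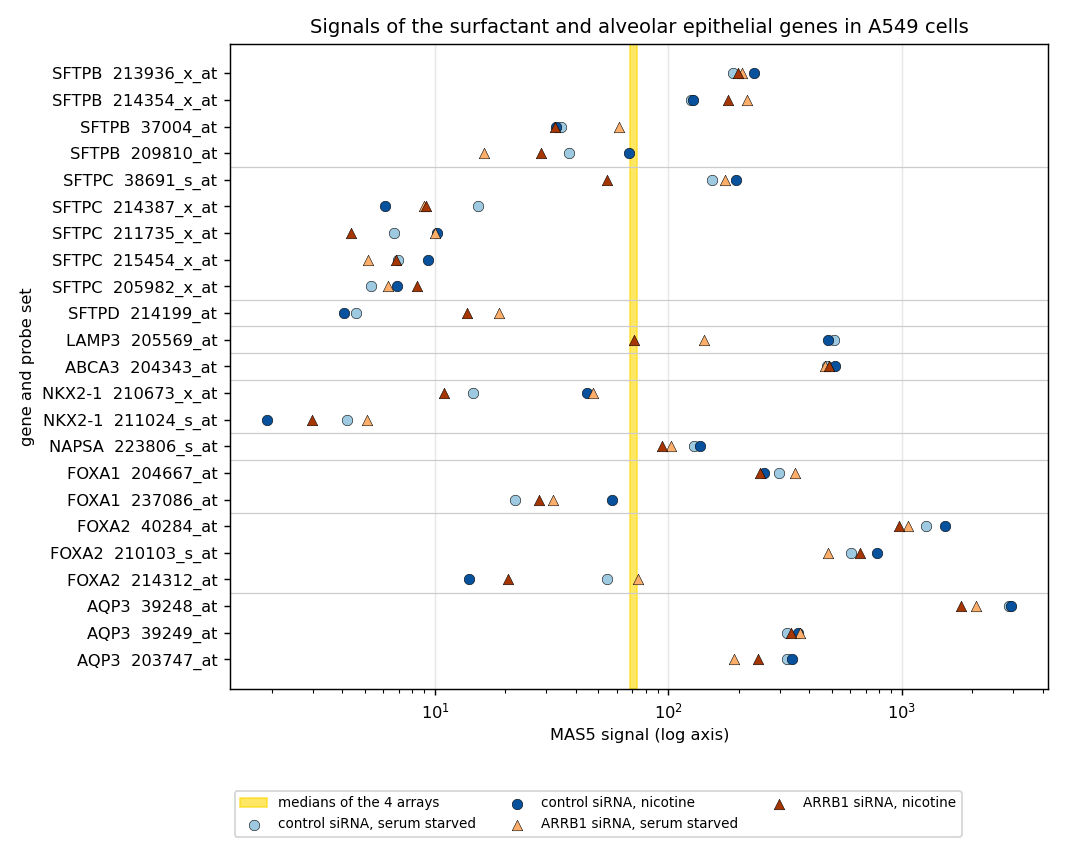
MAS5 signal (horizontal, log axis) of the 23 probe sets of the 10 genes (vertical), with 1 point per array and the band from 68.6 to 73.3 spanning the medians of the 4 arrays. The LAMP3 points with ARRB1 siRNA (triangles) lie left of those with control siRNA (circles), and all points of SFTPD and NKX2-1 lie left of the band.

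The surfactant proteins differed between their own probe sets. For SFTPB, 213936_x_at had, with control siRNA, a signal of 189 after serum starvation and 232 after nicotine, and with ARRB1 siRNA 206 and 198. In the same order, which holds for each set of 4 signals below, 214354_x_at had 124, 128, 218 and 181. The other SFTPB probe sets, 37004_at and 209810_at, ranged from 16.2 to 68.0 and were below the median on all arrays. The SFTPB signal above the median thus came from 2 of 4 probe sets, both of the _x_at type, which by their design may match other transcripts too. For SFTPC, 38691_s_at had 153, 195, 174 and 54.6, whereas the other 4 SFTPC probe sets ranged from 4.39 to 15.2. SFTPD had 4.58, 4.07, 18.8 and 13.7 on its single probe set. SFTPA1 and SFTPA2, the genes of the abundant collectin of surfactant, share both of their probe sets, which ranged from 1.52 to 53.6.

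Of the transcription factors, NKX2-1 was dim and the FOXA genes were bright. NKX2-1 signals were 14.5, 44.7, 47.7 and 11.0 on 210673_x_at and at most 5.09 on 211024_s_at, below the median throughout. FOXA2 had 1271, 1527, 1067 and 970.3 on 40284_at and 606, 781, 480 and 661 on 210103_s_at, well above it. FOXA1 had 298, 256, 347 and 246 on 204667_at. One further probe set each of FOXA1 (22.03 to 57.5) and FOXA2 (14.02 to 73.9) was dim.

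ABCA3, the lamellar body lipid pump, had 475, 519, 470.2 and 489, with little difference between the arrays. NAPSA had 129, 137, 103 and 94.0, and both signals with ARRB1 siRNA were below both with control siRNA. AQP3 was above the median on all 3 of its probe sets, with 2886, 2939, 2071 and 1795 on the brightest, 39248_at.

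Other markers of alveolar cells were set beside the label. A mean signal at or above 66.3, the median over all probe sets, is used below to call a gene expressed. No detection call was used, so the word names this cut and does not establish that the RNA was present. Of all genes, 63.3% reached the cut. Of 17 further type 2 genes in the table, 11 did, a share near that of all genes. Among these were LPCAT1, which remodels surfactant phosphatidylcholine (2450 to 3042), CTSH, a protease that also processes surfactant protein B (535 to 632), and ETV5, a factor of type 2 cell maintenance (1859 to 2256). SLC34A2, the phosphate transporter of type 2 cells, was below the median on every array, at 6.51 to 62.1. So were the other type 2 genes not expressed, SFTA2 (5.26 to 20.4), SFTA3 (0.497 to 3.42), WIF1 (2.85 to 14.7), CD36 (8.50 to 26.8) and ALPL (16.8 to 39.7). Of 16 type 1 genes, 7 were expressed, a lower share than of all genes, with the caveolins CAV1 and CAV2 and the orphan receptor GPRC5A among them. The more specific type 1 markers PDPN (9.48 to 24.7), HOPX (1.85 to 55.5) and AQP5 (5.70 to 14.04) were below the median on every array, and AGER, at 32.0 to 75.7, was above it on 1 array, that of serum starved cells with ARRB1 siRNA. Of the airway markers, SCGB1A1 of club cells (3.91 to 33.7), FOXJ1 of ciliated cells (7.996 to 32.8) and KRT5 of basal cells (8.50 to 52.8) were dim. The 6 expressed of 18 airway genes were the mucins MUC5B (1521 to 2485) and MUC5AC (559 to 947), the secretory cell genes AGR2 (7720 to 9456) and SPDEF (690 to 927), and TUBB4B (9138 to 10658) and CAPS (81.1 to 136), which are used as ciliated cell markers. Genes of surfactant lipid synthesis and storage were expressed in 18 of 20 cases, beside the 63.3% of all genes.

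The second question was how ARRB1 siRNA changed these genes, within serum starved and within nicotine treated cells. The pairs of arrays share no array. A gene was called at a 2-fold difference, the limit in the submitters' notes, and 8 of the 10 genes were expressed and so counted, SFTPD and NKX2-1 being too dim. Each difference is set beside the SD of the log2 differences of the 1000 probe sets nearest in signal, since no replicate gives an error. A limma fit across the 12521 expressed genes, with siRNA and treatment as additive terms, was added; it has 1 residual degree of freedom and counts any unlike response of the pairs as error.

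LAMP3 was the gene with the largest siRNA difference of the 8 in both pairs. Its single probe set, 205569_at, had, with control siRNA, a signal of 510 after serum starvation and 483 after nicotine, against 141 and 71.2 with ARRB1 siRNA. Both arrays with control siRNA were high and both with ARRB1 siRNA were low, and the last lay just above its array's median of 69.0. LAMP3 was thus 3.61-fold lower with ARRB1 siRNA in serum starved cells, a log2 difference of -1.85 where probe sets of similar signal had an SD of 0.391. It was 6.78-fold lower in nicotine treated cells, at -2.76 with an SD of 0.42. Of all expressed genes, 0.783% were at least 2-fold lower in serum starved cells, 1.4% in nicotine treated cells and 0.327% in both. In the other direction, where none of the 8 genes was called, these shares were 1.01%, 0.879% and 0.168%. At least as much lower as LAMP3 in both pairs were 7 genes (0.0559%), LAMP3 included. The limma fit gave a mean log2 difference of -2.31 (95% confidence interval -2.82 to -1.79, adjusted p = 7.6e-05), where 3.82% of expressed genes were called lower. Fewer cells with the RNA and less RNA per cell cannot be told apart in such bulk samples.

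AQP3 was lower with ARRB1 siRNA on 2 of its 3 probe sets, by less than 2-fold. On 39248_at (2886 and 2939 with control siRNA, 2071 and 1795 with ARRB1 siRNA) the log2 differences were -0.48 in serum starved and -0.71 in nicotine treated cells, where probe sets of similar signal had SDs of 0.242 and 0.278. On 203747_at, 321 and 340 with control siRNA stood against 191 and 242 with ARRB1 siRNA, at -0.75 and -0.49. The exception was 39249_at, with 323 and 357 against 367 and 335, which differed by 0.19 and -0.09, less than the SD at its signal. The limma fit of the brightest probe set gave -0.60 (95% confidence interval -0.82 to -0.37, adjusted p = 0.0027), and 1.57% of expressed genes were at least as much lower as this probe set in both pairs. The median signal over the 3 probe sets was that of 39249_at on every array, so it only repeats the 0.19 and -0.09 of that probe set. The direction in serum starved cells thus depended on the probe set, with 39249_at the exception. Of the other aquaporins, 2 of 10 in the table were expressed. AQP11, an intracellular channel, had -0.61 and -0.29, and AQP2, the vasopressin-regulated channel of kidney, had -0.03 and 0.06, and neither passed the limma fit.

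FOXA2 had lower signals with ARRB1 siRNA on its bright probe sets, also below 2-fold. On 40284_at the difference was -0.25 in serum starved cells, within the SD of 0.282, and -0.65 in nicotine treated cells, beyond the SD of 0.303. On 210103_s_at it was -0.34 and -0.24, with SDs of 0.306 and 0.315. The limma fit of 40284_at gave -0.45 (95% confidence interval -0.72 to -0.19, adjusted p = 0.039). FOXA1 differed by 0.22 and -0.05 on 204667_at, with opposite directions in the pairs and a limma interval of -0.31 to 0.47.

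**Figure D2:**
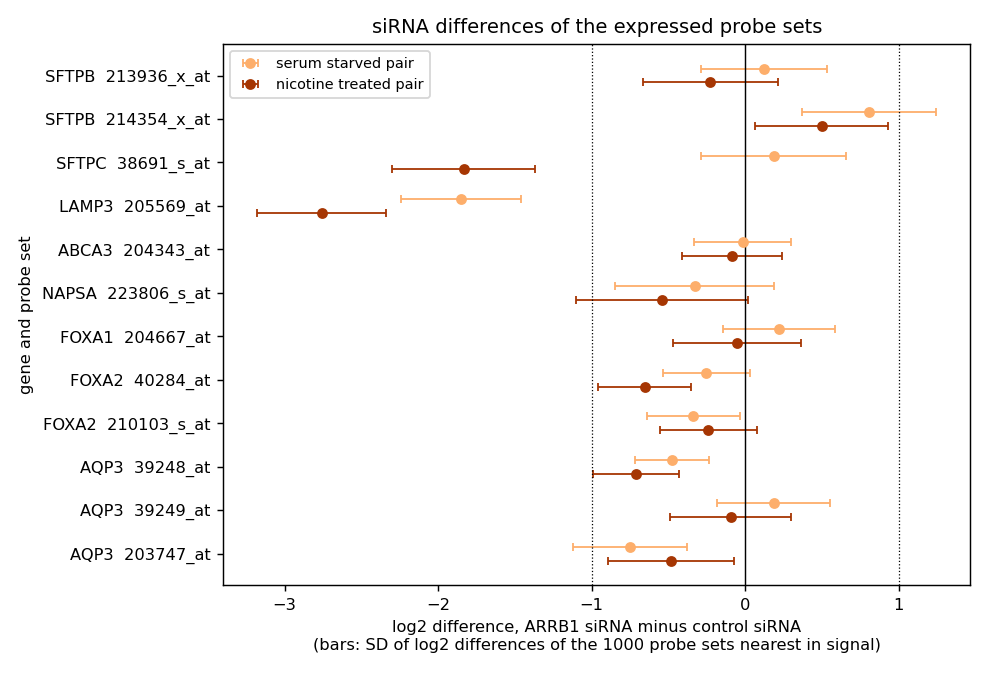
Log2 difference of ARRB1 siRNA minus control siRNA (horizontal) for the 12 expressed probe sets of these genes (vertical), in the serum starved pair (light) and the nicotine treated pair (dark). Bars are the SD of the log2 differences of the 1000 probe sets nearest in signal and dotted lines mark 2-fold; LAMP3 lies beyond -1 in both pairs and SFTPC in the nicotine treated pair only.

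The lipid pump and the protease showed no difference beyond that of similar probe sets. ABCA3 differed by -0.02 and -0.09, with a limma mean of -0.05 (95% confidence interval -0.36 to 0.26), an interval that leaves out a 2-fold difference. NAPSA differed by -0.33 and -0.54, with SDs of 0.519 and 0.562 at its signal. Its limma interval, -1.07 to 0.20, reaches a 2-fold lower level.

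The surfactant protein genes gave no common direction. SFTPB differed by 0.12 and -0.23 on 213936_x_at and by 0.81 and 0.50 on 214354_x_at, so its expressed probe sets disagreed. Its dim probe sets disagreed as well. On 209810_at the differences were -1.21 and -1.26, with SDs of 1.13 and 1.12. On 37004_at they were 0.82 and -0.02, with SDs of 0.971 and 0.982. The limma interval for 213936_x_at was -0.51 to 0.41. SFTPC was at 0.19 in serum starved and -1.83 in nicotine treated cells on 38691_s_at, where probe sets of similar signal had SDs of 0.473 and 0.464. The second value is a 3.57-fold lower signal that comes from 1 array, ARRB1 siRNA nicotine, at 54.6 against 153 to 195 on the others. Probe sets with a mean signal near 54.4 had a larger SD, 0.809, in the nicotine treated pair. The other 4 SFTPC probe sets were too dim to bear on the lower SFTPC signal, and the limma fit, with an adjusted p of 0.403, did not call SFTPC. SFTPD, dim throughout, had 4.58 and 4.07 with control siRNA and 18.8 and 13.7 with ARRB1 siRNA. Both signals with ARRB1 siRNA were higher, but all were far below the array medians. Of probe sets dimmer than the median, 39.8% differed at least 2-fold between siRNAs among serum starved cells and 41.5% among nicotine treated cells, against 2.3% and 2.85% of brighter ones. NKX2-1 on 210673_x_at was at 1.71 in serum starved and -2.03 in nicotine treated cells, where similar probe sets had SDs of 1.28 and 1.39.

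By the brightest probe set of each gene, 5 of the 8 expressed genes were lower in both pairs and none was higher in both. Of all expressed genes, 30.0% and 34.6% were. Of the 12 expressed probe sets of the 8 genes, 7 were lower in both pairs, 1 was higher in both and 4 had opposite directions. The higher 1 was 214354_x_at of SFTPB, at 0.81 and 0.50. AQP3 was at 0.19 and -0.09 on 39249_at, so its place among the 5 depended on the probe set. With each array centred on its median, ABCA3 was at -0.09 and 0.002 and FOXA1 at 0.14 and 0.03, and with quantile normalization ABCA3 was at 0.02 and -0.03 and FOXA1 at 0.25 and 0.01. The direction of ABCA3 in each pair, and with it its place among the 5, and that of FOXA1 in nicotine treated cells thus rest on the scaling. The median log2 difference of the 8 was -0.13 in serum starved and -0.60 in nicotine treated cells, against 0.02 in each pair for all expressed genes. By the limma fit of the brightest probe sets, 3 of the 8 (LAMP3, AQP3 and FOXA2) were lower and none was higher. Of all expressed genes, 3.82% were called lower and 3.63% higher.

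**Figure D3:**
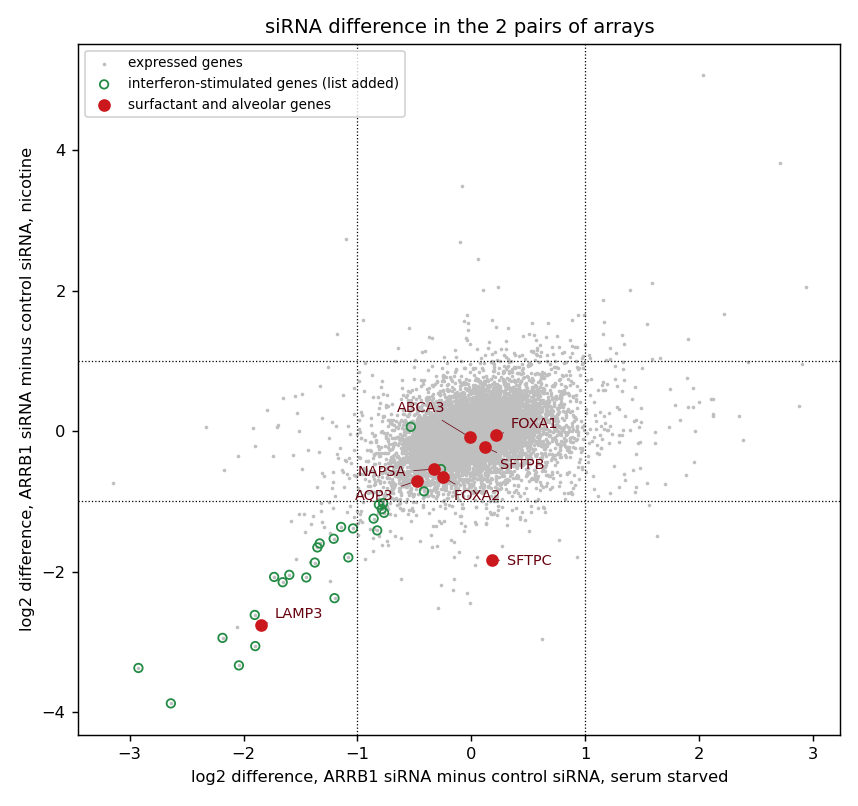
Log2 difference of ARRB1 siRNA minus control siRNA in serum starved (horizontal) and nicotine treated cells (vertical), with 1 point per gene for the 12521 expressed genes (grey), the 8 expressed surfactant and alveolar genes (red, named) and the 27 interferon-stimulated genes (green circles). Dotted lines mark 2-fold; LAMP3, at -1.85 and -2.76, is the 1 red point beyond 2-fold in both pairs and lies among the green circles.

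LAMP3 is also known as a marker of mature dendritic cells and as a gene that interferon induces in several cell types, so 2 further groups are given beside it. Of 27 interferon-stimulated genes, 18 were at least 2-fold lower with ARRB1 siRNA in both pairs, against 0.327% of all expressed genes. The list was added after the values of LAMP3 and of its own genes were seen, so this is no independent count. The list's median log2 difference was -1.21 in serum starved and -1.66 in nicotine treated cells. MX1, an antiviral GTPase, had 2937 and 3633 with control siRNA against 646 and 472 with ARRB1 siRNA, and OAS2, a sensor of double-stranded RNA, had 936 and 1217 against 123 and 118. Interferon-stimulated genes thus moved with LAMP3 on the same arrays, and their part in its difference was not tested. Of 15 mesenchymal, endothelial and immune markers in the table, 4 were expressed, namely COL1A1 (425 to 573), ACTA2 (640 to 924), the endothelial and leukocyte marker PECAM1 (157 to 205) and the B cell marker CD79A (149 to 256). PTPRC, which leukocytes carry in general, lay between 4.16 and 36.0, below the median of every array. LAMP3 is induced by the unfolded protein response in some cells as well. None of 14 genes of that response, a list also added after its values were seen, reached 2-fold in either pair. Their medians were 0.14 and 0.08, and the limma fit called ATF4 higher. The part of that response in the LAMP3 difference was not tested.

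Genes around the surfactant system were described by the same measures. Of 11 expressed type 2 genes none reached 2-fold, their medians were -0.22 and -0.07, and the limma fit called CEBPA and SDC1 lower. CEBPA, a factor of type 2 cell maturation and of surfactant lipid genes, had 833 and 917 with control siRNA and 539 and 575 with ARRB1 siRNA, with both pairs lower (-0.63 and -0.67, limma adjusted p = 0.0064). SDC1, a heparan sulfate proteoglycan of epithelia, was at -0.53 and -0.29. MUC1, a membrane mucin, was at -0.43 and -0.41, and PGC, a protease that acts on surfactant protein B, at 0.19 and 0.55, both without a limma call. Of 7 expressed type 1 genes none reached 2-fold, and the limma fit called CAV1, the main caveolin (0.29 and 0.36), and GPRC5A (0.44 and 0.57) higher. SCNN1A, a subunit of the sodium channel that clears alveolar fluid, was at -0.68 and -0.51, and CAV2 at 0.22 and 0.18, both without a call.

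Lung epithelial transcription factors included 22 expressed genes, with medians of -0.11 and -0.16. In both pairs 13 (59.1%) were lower and 3 (13.6%) higher, against 30.0% and 34.6% of all expressed genes. The limma fit called CEBPA, SOX2, SOX9 and STAT3 lower and ELF3 higher, and none reached 2-fold. SOX2, a factor of proximal airway identity, had 2139 and 2268 with control siRNA and 1507 and 1399.9 with ARRB1 siRNA. STAT3, a transducer of cytokine signals, had 5005 and 4669 against 3089 and 3109. ELF3, an epithelial ETS factor, had 1476 and 1517 against 2104 and 2247. In these genes both arrays of one siRNA lay on the same side of both arrays of the other.

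Of 18 expressed genes of surfactant lipid synthesis and storage, none reached 2-fold, and the medians were -0.12 and -0.05. SREBF1, the regulator of fatty acid synthesis, was lower (-0.56 and -0.42, limma adjusted p = 0.0067), as was the lipid transfer protein STARD10 (-0.31 and -0.72). ACLY, which supplies acetyl-CoA (0.35 and 0.33), and FABP5, a fatty acid binding protein (0.32 and 0.38), were higher by the limma fit. FASN, the fatty acid synthase that SREBF1 controls, had 4706 and 4882 with control siRNA and 4716 and 4955 with ARRB1 siRNA. Of 22 lamellar body and lysosome genes, all expressed, none reached 2-fold. ATP11A, a phospholipid flippase, was called lower by limma (-0.32 and -0.59). LAMP1 and LAMP2, the widely expressed relatives of LAMP3, were at -0.17 and 0.04 and at -0.13 and -0.27 and were not called.

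**Figure D4:**
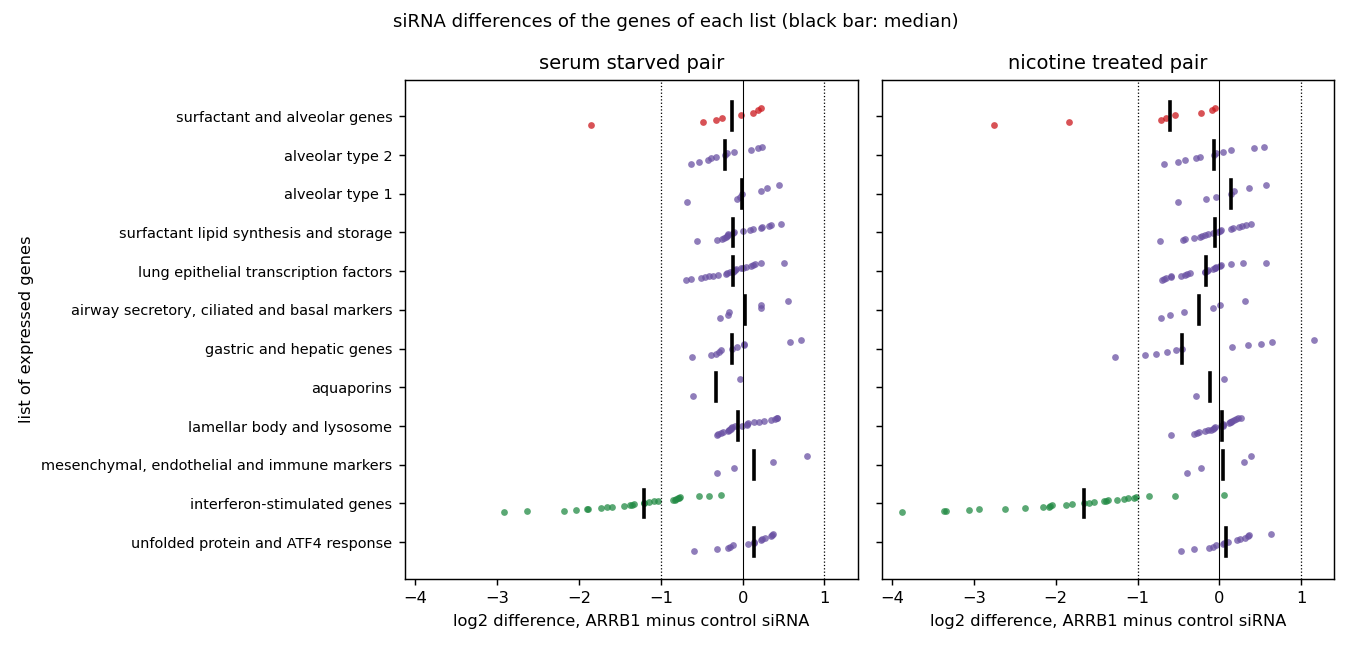
Log2 difference of ARRB1 siRNA minus control siRNA (horizontal) of the expressed genes of each list (vertical), in the serum starved pair (left) and the nicotine treated pair (right), with 1 point per gene and a black bar at the median. The interferon-stimulated genes (green) have medians of -1.21 and -1.66, and LAMP3 at -1.85 and -2.76 is the lowest red point.

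Airway, digestive and hepatic genes were set beside these lists, since adenocarcinoma cells without NKX2-1 are known to take on gastric and hepatic traits. Of 6 expressed airway genes none reached 2-fold and none was called by limma. MUC5B was at -0.18 and -0.71 and SPDEF, a factor of mucous cells, at -0.16 and -0.43. Of 21 gastric and hepatic genes in the table, 11 were expressed, a lower share than the 63.3% of all genes. The fibrinogen chains FGA (812 to 1117), FGB (1280 to 2002) and FGG (1325 to 2266) were among them, whereas ALB (4.04 to 45.1) and APOB (7.46 to 20.6), other products of liver cells, and the intestinal factor CDX2 (5.43 to 13.7) were below the median on every array. APOH, a plasma glycoprotein of liver, was lower in both pairs (-0.62 and -0.91, limma adjusted p = 0.00096). TTR, of the same list and with signals of 51.1 to 126, was higher in both (0.71 and 0.65) without a limma call. MUC13, a mucin of the gut, was at -0.28 in serum starved and -1.28 in nicotine treated cells, and the protease inhibitor SERPINA1 at 0.58 and 1.16, neither of them called by limma.

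The nicotine comparisons share arrays with those above. For the serum starved cells 36 h of starvation is given, and no further 24 h without nicotine. Nicotine and any longer time in culture thus cannot be told apart. In control siRNA cells none of the 8 expressed genes reached 2-fold, where 0.335% of all expressed genes were lower and 0.719% higher by that much, and the 8 lay between -0.22 (FOXA1) and 0.35 (SFTPC). LAMP3 had 510 without and 483 with nicotine there, a log2 difference of -0.08 with an SD of 0.323 at its signal. In ARRB1 siRNA cells SFTPC was lower with nicotine (-1.67, from 1 probe set), where 0.958% of expressed genes were at least 2-fold lower and 0.495%, none of the 8 among them, at least 2-fold higher. LAMP3 was at -0.99 in those cells, 141 against 71.2, just short of 2-fold, with an SD of 0.358. AQP3 on 39248_at was at 0.03 in control and -0.21 in ARRB1 siRNA cells, and ABCA3 at 0.13 and 0.06. FOXA1 had lower signals with nicotine, at -0.22 in control and -0.50 in ARRB1 siRNA cells, with SDs of 0.306 and 0.358 at its signal. FOXA2 on 210103_s_at was higher with nicotine in both, at 0.37 and 0.46, whereas 40284_at gave 0.26 and -0.14.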

How the data were processed

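The signal intensities that were deposited are linear MAS5 values, which the submitters' notes credit to GCOS 1.4. The mean of every array without 2% of probe sets at either end was 500.1, and arrays were compared as deposited. The study's methods give a log2 transformation with centring per gene, which these values do not hold. Left out were 62 control probe sets. Symbols came from the platform annotation, and 41091 probe sets named 1 gene. Where a gene had several probe sets, that of highest mean log2 signal stood for it, and the 12521 genes with a mean at or over the median probe set (66.3) were called expressed. Differences, with no floor, were taken in Python 3.11.15 (numpy 2.4.6, pandas 2.3.3; figures in matplotlib 3.10.9). The additive fit, tested on simulated data first, used limma 3.58.1 in R 4.3.3 (eBayes with trend and robust settings) with Benjamini-Hochberg adjustment at 0.05. With 1 array per condition, no pair of conditions was tested by itself, and precision is limited by the 4 arrays. Promoters came from RefSeq (GRCh38.p14), whose table held 7 of the 10 genes.

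The members, lists and alternatives were chosen with earlier results of these data known, and the lists of interferon-stimulated and unfolded protein response genes were added after their values were seen. The rule for names took all members, ARRB1, markers that check the label, and up to 4 expressed genes of a list with the largest mean siRNA difference among those with 1 direction in both pairs. Genes named outside it, among them FASN, LPCAT1, CTSH, ETV5, LAMP1, LAMP2, AQP2, ALB, APOB, CDX2 and the fibrinogens, were chosen after their values were seen.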

Additional observations from a re-analysis of the deposited data

Results flagged for a closer look

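Some genes are listed here because their brightest probe set moved in opposite directions in the 2 settings of a contrast, and with 1 array per condition none of these differences was tested. The value given is the siRNA log2 difference in nicotine treated cells minus that in serum starved cells. The siRNA difference turned direction for SFTPB (-0.35), FOXA1 (-0.28), SFTPC (-2.02) and NKX2-1 (-3.74). The nicotine difference turned direction between control and ARRB1 siRNA cells for SFTPB, SFTPC and NKX2-1 as well, and for NAPSA (-0.21), FOXA2 (-0.40) and AQP3 (-0.23). After centring of the arrays on their medians, the siRNA difference of FOXA1 and the nicotine differences of SFTPB, NAPSA and AQP3 no longer turned direction. The value of SFTPC rests on 1 array, that of nicotine treated cells with ARRB1 siRNA, and on 1 of 5 probe sets, and NKX2-1 was below the median signal on every array.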

How the results depend on the processing

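LAMP3 was at least 2-fold lower with ARRB1 siRNA in both pairs as deposited, with centred arrays and with quantile normalization. It lay from -1.93 to -1.85 in serum starved and from -2.76 to -2.67 in nicotine treated cells. The other settings that kept LAMP3 could not change these values. Its signals lay above both floors, and its single probe set is not of the _x_at type. Its differences also passed limits of 1.5-fold and 3-fold. A filter at the 75th percentile of signal left 3 of the genes (ABCA3, FOXA2 and AQP3), not LAMP3, and 0 genes were called in each comparison. For ARRB1 siRNA in serum starved cells 1 gene was called, 3 with no filter (with SFTPD and NKX2-1) and 2 with a filter at the 25th percentile (with NKX2-1). In nicotine treated cells 2 were called, 4 at a 1.5-fold limit (with FOXA2 and AQP3), 4 with no filter (with SFTPD and NKX2-1) and 1 by the median over probe sets, without SFTPC. In both pairs 1 was called, 2 with no filter (with SFTPD) and 3 by the limma fit. For nicotine in control siRNA cells 0 were called, and 1 (NKX2-1) with no filter or the 25th percentile. In ARRB1 siRNA cells 1 was called, 2 at 1.5-fold (with LAMP3), 2 with no filter or the 25th percentile (with NKX2-1) and 0 by the median over probe sets. Of 7 genes above the median of every array, 3 were above the 75th percentile, and 6 were above the median without _x_at probe sets, SFTPB being lost. Centring moved the median log2 difference of all expressed genes from 0.02 to 0.10 for ARRB1 siRNA in nicotine treated cells and from -0.02 to -0.12 for nicotine in control siRNA cells. It turned the genes at least 2-fold lower and higher with ARRB1 siRNA from 98 and 127 to 131 and 111 in serum starved cells and from 175 and 110 to 142 and 148 in nicotine treated cells. For nicotine they went from 42 and 90 to 60 and 70 with control siRNA, and from 120 and 62 to 92 and 84 with ARRB1 siRNA. Signals below the array median limit what can be said of SFTPD, NKX2-1 and most SFTPC probe sets. No paired analysis was possible because the labels number no replicates. The additive limma fit, with treatment as a term, gives 1 siRNA difference averaged over the treatments and none for a single treatment.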
